A study of Bos taurus with 15 samples.

Results

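Oocytes from the dominant follicle (DF) collected 2 h before ovulation were compared with DF oocytes collected 19-23 h after oestrus detection, using single-cell RNA sequencing. The comparison covered 9 of the 15 DF oocytes of the series, chosen by their labelled time of collection, 5 of them (T3.1 to T3.5) 2 h before ovulation and 4 (T2.1 to T2.4) 19-23 h after oestrus detection. The other 6 were collected 24 h before ovulation and did not enter the comparison. Each oocyte came from a different crossbred nulliparous beef heifer, predominantly of Limousin and Charolais breeding. Heifers of both groups had received a first gonadotrophin-releasing hormone (GnRH) injection with an intravaginal progesterone device, then a prostaglandin F2a analogue and removal of the device, and were slaughtered on the same day of the protocol. The heifers of the 2 h group formed a subgroup that also received a second GnRH dose to secure a surge of luteinising hormone (LH), so the time of collection and the second dose cannot be told apart. The sample titles of the T2 oocytes count their hours backwards from ovulation, whereas the treatment labels and descriptions count them from oestrus, and the treatment labels were followed. No interval between the groups can therefore be given. Of the T3 oocytes, only T3.2 and T3.4 are among the 11 oocytes that the study's quality table lists, whereas all 4 T2 oocytes are, and every comparison was therefore made with all 5 T3 oocytes and again with T3.2 and T3.4 alone.

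After the LH surge the oocyte of the dominant follicle leaves its long meiotic arrest, and in cattle it reaches the second meiotic metaphase before it is ovulated. A fully grown oocyte makes little new RNA, so it works through this interval with a store of maternal messenger RNAs. Stored transcripts are translated when their poly-A tail is lengthened in the cytoplasm, and silenced or destroyed when the tail is removed by deadenylases. Libraries were made with Smart-seq2 after capture of RNA on oligo-dT beads, and a difference in tail length cannot be told apart from a difference in abundance.

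Over all 5 T3 oocytes fewer genes were detected on average than in T2, and a few abundant transcripts filled more of each library. The study's quality table leaves out 3 of these 5 libraries. According to its methods, libraries with few counts inside genes were excluded, and those kept exceeded set numbers of reads and expressed genes. With 2366 genes, T3.5 falls under that gene minimum, whereas T3.1 and T3.3 exceed it. The reason for leaving out each oocyte is not given in the sources used here. The total of gene counts was between 1071109 and 2851791 in the T2 oocytes, 2834737 in T3.2 and 2617518 in T3.4, but only 620910, 271763 and 175263 in T3.1, T3.3 and T3.5. A gene without a count could therefore have been present at up to 15.6 CPM in T3.5, 14.9 in T3.3 and 5.77 in T3.1. In T2.1, the T2 oocyte with the smallest total, the limit was 2.38 CPM. CPM are counts scaled to the TMM-adjusted library total, and the limit is the level at which 3 counts would be seen, covering counting error only. Genes with a count above 1 numbered 8950, 10499, 9626 and 10258 in T2.1 to T2.4. In T3.1 to T3.5 they numbered 4944, 9046, 5145, 8257 and 2366, so that T3.2 overlapped the T2 range and the other 4 lay below it. The mean was 9833 ± 694 (SD, n = 4) in T2 and 5952 ± 2712 (SD, n = 5) in T3 oocytes (exact permutation test, two-sided, p = 0.0317; 0.0159 is the smallest possible). When every oocyte was thinned to 175263 counts the range was 6340 to 6573 genes in T2 and 2366 to 6073 in T3 oocytes, and the groups did not overlap (exact permutation test, p = 0.0159). T3.2 and T3.4 alone averaged 8652 ± 558 genes (SD, n = 2), a difference from T2 of -1182 genes (exact permutation test, p = 0.267, where 2 against 4 allow 0.133 at the smallest).

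The 10 most abundant genes held 5.91, 4.91, 5.25 and 4.85% of the counts in T2.1 to T2.4. The same share was 29.8, 12.8, 13.6, 12.3 and 27.3% in T3.1 to T3.5, so every oocyte collected 2 h before ovulation lay above all 4 collected after oestrus detection, by 13.9 percentage points on average (p = 0.0159 in a two-sided exact permutation test, the smallest it can give). T3.2 and T3.4 alone were 7.32 points above T2 (exact permutation test, p = 0.133, the smallest possible for 2 against 4). The most abundant gene also differed among the T3 oocytes. It was OOSP2, an oocyte-secreted protein, in T3.1 with 18.8% and in T3.3 with 3.09% of the counts, GSTM3, a glutathione S-transferase, in T3.2 with 3.83%, and EIF1AX, a translation initiation factor, in T3.5 with 7.80%. In T3.4 and all T2 oocytes it was a gene without a symbol, with 2.79% of the counts in T3.4 and 0.722 to 0.958% in the T2 oocytes.

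**Figure D1:**
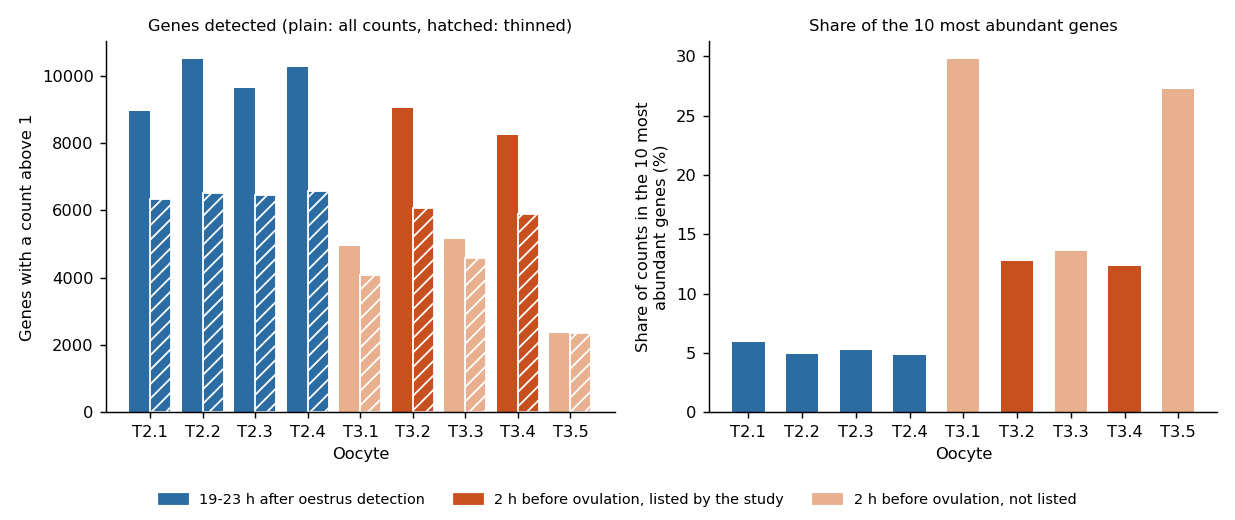
Left, number of genes with a count above 1 in each oocyte (x axis) from all counts (plain bars) and after thinning every oocyte to 175263 counts (hatched bars). Right, percent of counts held by the 10 most abundant genes, between 4.85 and 5.91% in the 4 oocytes collected 19-23 h after oestrus detection (blue) and between 12.3 and 29.8% in the 5 collected 2 h before ovulation (orange, paler where not listed by the study).

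The T3 oocytes were also less alike. The Spearman correlation of log2 CPM, here and later scaled to the TMM-adjusted total of each library, across 13268 genes lay between 0.876 and 0.934 for the 6 pairs of T2 oocytes, and was 0.777 between T3.2 and T3.4. It lay between 0.716 and 0.826 for pairs of a T2 oocyte with T3.2 or T3.4, between 0.428 and 0.746 for pairs of a T2 oocyte with T3.1, T3.3 or T3.5, and between 0.373 and 0.554 among these last 3. These correlations are across genes, share libraries whose depths differ, and they are given as a description. Of 8 oocyte markers that could be named, 8, 8, 7 and 7 had counts in T2.1 to T2.4 and 6, 7, 8, 7 and 5 in T3.1 to T3.5. OOSP2 was at or above 2217 CPM in all 9 oocytes, and NLRP5, a maternal-effect gene, had counts in all but T3.1. GDF9, BMP15 and the ZP genes carry no symbol in the table used for naming and were not analysed here.

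Across all 5 T3 and 4 T2 oocytes, no single gene passed the thresholds of an adjusted p under 0.05 and an absolute log2 fold change above 1.5 in the edgeR quasi-likelihood test. Of 7012 genes tested, 0 (0%) were called, the smallest adjusted p being 0.0589. At an unadjusted p under 0.05, 335 genes (4.78%) were higher and 282 (4.02%) were lower 2 h before ovulation. Other tools called 160 genes (likelihood ratio test of edgeR), 244 (DESeq2) and 201 (limma-voom with sample weights). Leaving out T3.1, the oocyte in which OOSP2 took 18.8% of the counts, the quasi-likelihood test called 190 genes, 125 of them higher, and leaving out T3.2 it called 129, of which 112 were lower. The values of all 5 T3 oocytes lay above all 4 T2 values for 67 genes (0.956%) and below them for 555 (7.92%), and many genes had no count in T3.1, T3.3 and T3.5. The part of depth in the second number was not tested.

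With T3.2 and T3.4 alone against the 4 T2 oocytes, 806 of 8753 genes tested (9.21%) were called, 504 (5.76%) higher and 302 (3.45%) lower 2 h before ovulation. Those called higher had a median level between 4.10 and 5.06 log2 CPM in the T2 oocytes, against 4.60 to 4.69 over all genes tested, and their median log2 fold change was 3.12. Those called lower had a median level between 4.76 and 4.96 log2 CPM in the T2 oocytes, and 137 of them had no count in either T3.2 or T3.4. Their median log2 fold change was -3.76 when such genes were set to the bound that 3 counts over both libraries allow, and -2.81 over the other 165. A symbol was known for 152 of the genes called higher (10.4% of 1463 with a symbol tested) and for 53 called lower (3.62%). Symbols come from the study's table of genes that differed between DF oocytes and oocytes above 120 μm, so the named genes are a selected part of the transcriptome. Genes that this table lists as higher in DF, a choice made by the study on these oocytes among others, made up 151 of the 152 named genes called higher (20.6% of 734 tested, against 0.137% of the 729 listed as higher in the >120 μm oocytes). Another 24 of the 734 (3.27%) were called lower. The table does not separate the time points, but with T2 and T3 both inside DF it is no independent evidence for a direction. The calls did not hold in every fit. With the 11 listed oocytes of all 3 time points in a single fit, which estimates the spread with the oocytes collected 24 h before ovulation included, the calls fell to 0 (1761 genes at an unadjusted p under 0.05), and without T2.3 the calls numbered 302, of which 245 were higher and 57 lower. Without T2.2 they numbered 324, with 263 higher and 61 lower.

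**Figure D2:**
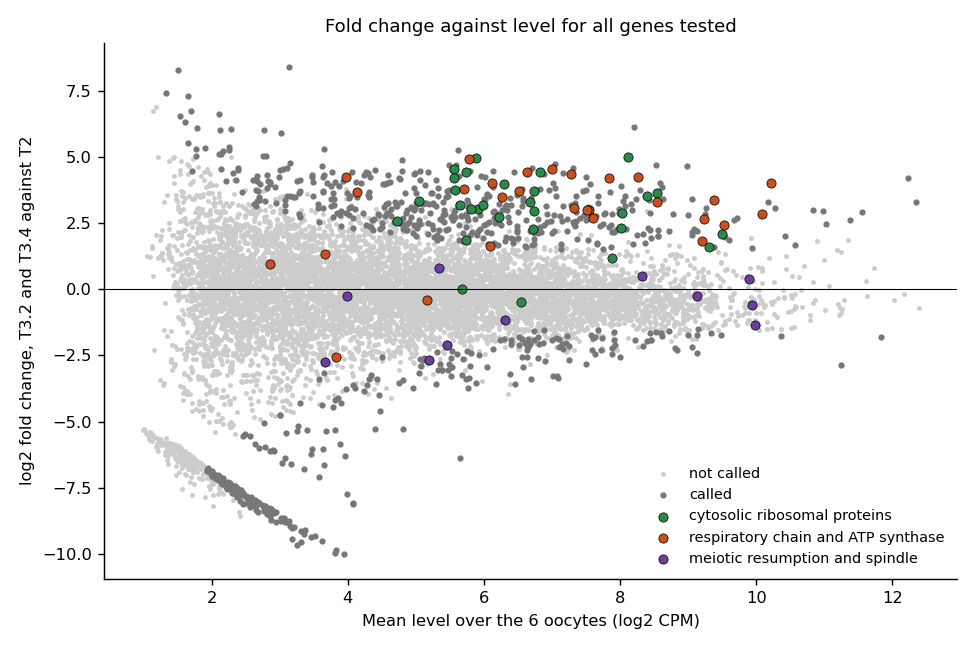
log2 fold change of T3.2 and T3.4 against the 4 T2 oocytes (y axis) by mean level over these 6 oocytes in log2 CPM (x axis) for 8753 genes, with called genes in dark grey. Most named genes of the cytosolic ribosome (green) and of the respiratory chain and ATP synthase (orange) lie among the genes called higher, those of meiosis and the spindle (purple) lie on both sides of 0, and the oblique band at the lower left holds genes without a count in T3.2 and T3.4.

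Transcripts for the respiratory chain and ATP synthase, the machinery of oxidative phosphorylation in the inner mitochondrial membrane, were higher in T3.2 and T3.4 than in every T2 oocyte for 25 of the 28 nuclear-encoded subunits that could be named (17.8% of all genes with a symbol were non-overlapping in this direction), and lower for 1. Of the 28, 21 were called higher and 0 lower, and their median log2 fold change was 3.34, against -0.13 over all genes tested. By complex, with NDUFA4 counted in complex I, 8 of 10 were called higher for complex I, 3 of 3 for complex III, 4 of 4 for complex IV and 6 of 11 for ATP synthase. The study's table lists 24 of the 28 as higher in DF, and these include all 21 that were called. Of all genes with a symbol so listed, 20.6% were called higher. That listing rested in part on T3.2 and T3.4, so the median over all genes tested is not a like comparison. The 4 members listed as higher in >120 μm oocytes had a median log2 fold change of 0.28 (-2.57 to 1.34). Among these 4, NDUFV1 of the catalytic part of complex I had a log2 fold change of 1.34, and ATP5F1B and ATP5F1D of the F1 part of ATP synthase -0.42 and 0.98, none of them called. The 13 mitochondrially encoded subunits could not be named.

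COX6C (ENSBTAG00000014130), a nuclear-encoded subunit of cytochrome c oxidase, showed the pattern at the highest level. It had 188, 391, 623 and 1022 CPM in T2.1 to T2.4 and 86.5, 3958, 6193, 15487 and 5696 CPM in T3.1 to T3.5. Both listed T3 oocytes, T3.3 and T3.5 lay above the T2 range, and T3.1 lay below it. The log2 fold change of T3.2 and T3.4 against T2 was 4.04 ± 0.68 (adjusted p = 0.00771). NDUFA4, first described in complex I and associated with cytochrome c oxidase, had 457, 545, 455 and 813 CPM in T2.1 to T2.4 and 34.6, 3138, 5943, 5491 and 13669.8 CPM in T3.1 to T3.5, again with T3.1 as the only T3 oocyte outside the higher group. Its log2 fold change was 2.84 ± 0.38 (adjusted p = 0.00274). UQCRQ and UQCRH, small subunits of complex III, had log2 fold changes of 3.37 ± 0.45 (adjusted p = 0.00270) and 4.22 ± 0.45 (adjusted p = 0.00127). UQCRH had 55.6, 69.6, 85.5 and 142 CPM in T2.1 to T2.4 and 82.7, 1291, 2501, 2196 and 996 CPM in T3.1 to T3.5, and only T3.1 fell inside the T2 range. ATP5PO, part of the stalk that joins the head of ATP synthase to the membrane, had 449 ± 270.0 CPM (SD, n = 4) in the T2 and between 312 and 3248 CPM in the T3 oocytes, with a log2 fold change of 2.42 ± 0.50 (adjusted p = 0.0184). ATP5IF1, the inhibitor that blocks hydrolysis of ATP by this enzyme, had a log2 fold change of 3.297 ± 0.59 (adjusted p = 0.0107), from 196 ± 103 CPM (SD, n = 4) in T2 to 1800.5 CPM in T3.2 and 2284 CPM in T3.4. ATP5PD, another stalk subunit, was higher in both without being called (log2 fold change 1.83 ± 0.66 (adjusted p = 0.112)).

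Together the 28 genes held 0.207, 0.559, 0.467 and 0.602% of the counts in T2.1 to T2.4 and 0.132, 2.60, 2.07, 4.58 and 3.75% in T3.1 to T3.5. T3.2 to T3.5 thus stood above all T2 oocytes and T3.1 below them, so that only UQCR11 and ATP5MJ separated all 5 T3 from all 4 T2 oocytes. Over all 5 T3 oocytes the median log2 fold change of the 28 genes was 2.65, with 0 called in edgeR (21 at an unadjusted p under 0.05) and 11 called higher by DESeq2. Without T3.1 it was 2.93, with 12 of 28 called higher. In the comparison of T3.2 and T3.4, between 18 and 23 of the 28 were called higher when any 1 oocyte was left out, and 0 in the single fit of 11 oocytes, where the median was 3.37. Many of these subunits have processed pseudogenes, and reads shared with such copies could have been assigned to either.

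Transcripts for proteins of the cytosolic ribosome behaved alike. Of 29 that could be named out of 78, 25 were called higher in T3.2 and T3.4 and 0 lower, with a median log2 fold change of 3.197. Called higher were 10.4% of all genes with a symbol, and 20.6% of those that the study lists as higher in DF. The study's table lists 27 of the 29 as higher in DF, which include all 25. The other 2, RPSA and RPLP0, had log2 fold changes of -0.47 and 0.02 and were not called. In contrast to the respiratory genes, 11 of the 29 separated all 5 T3 from all 4 T2 oocytes (2.03% of all genes with a symbol did so in this direction), T3.1 included.

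RPL14, a protein of the large subunit, had 26.2, 33.7, 21.1 and 40.8 CPM in T2.1 to T2.4 and 119, 404, 1051, 627 and 1929.8 CPM in T3.1 to T3.5. Every T3 oocyte was above every T2 oocyte, and T3.1 was the lowest of its group. The log2 fold change was 4.76 ± 0.99 over all 5 T3 oocytes (adjusted p = 0.0589) and 3.99 ± 0.40 (adjusted p = 0.00127) for T3.2 and T3.4. RPL32 and RPS9, of the large and the small subunit, reached log2 fold changes of 4.74 ± 1.03 and 4.52 ± 1.02 over all 5, each with an adjusted p of 0.0589. RPL19 was the most abundant of those that separated the groups, with 211, 159, 95.6 and 179 CPM in T2.1 to T2.4 and 233, 1869.6, 1579, 2451 and 446 CPM in T3.1 to T3.5. Its lowest T3 value exceeded the highest T2 value by little, and its log2 fold change was 3.66 ± 0.38 (adjusted p = 0.00127) for T3.2 and T3.4. RPL28 and RPS10 were non-overlapping too, with 4.20 ± 0.46 (adjusted p = 0.00144) and 3.76 ± 0.47 (adjusted p = 0.00232). RPS27A, which encodes ubiquitin fused to a protein of the small subunit, overlapped through T3.1 but was called for T3.2 and T3.4 with 2.12 ± 0.40 (adjusted p = 0.0122), whereas RPL21 was not, with 1.604 ± 0.54 (adjusted p = 0.0974).

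The 29 genes held 0.218, 0.340, 0.278 and 0.364% of the counts in T2.1 to T2.4 and 0.249, 1.23, 1.25, 2.46 and 1.84% in T3.1 to T3.5, so T3.1 stayed within the T2 range in the sum while T3.2 to T3.5 were above it. Their median log2 fold change was 2.93 over all 5 T3 oocytes with 0 called in edgeR (21 at an unadjusted p under 0.05) and 16 called higher by DESeq2. It was 3.13 with 14 called when T3.1 was left out. For T3.2 and T3.4, between 20 and 27 were called with any 1 oocyte left out, and 0 in the single fit of 11 oocytes (median 3.23). Ribosomal protein genes have many processed pseudogenes, and how reads shared between copies were counted is not given in the sources used here.

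**Figure D3:**
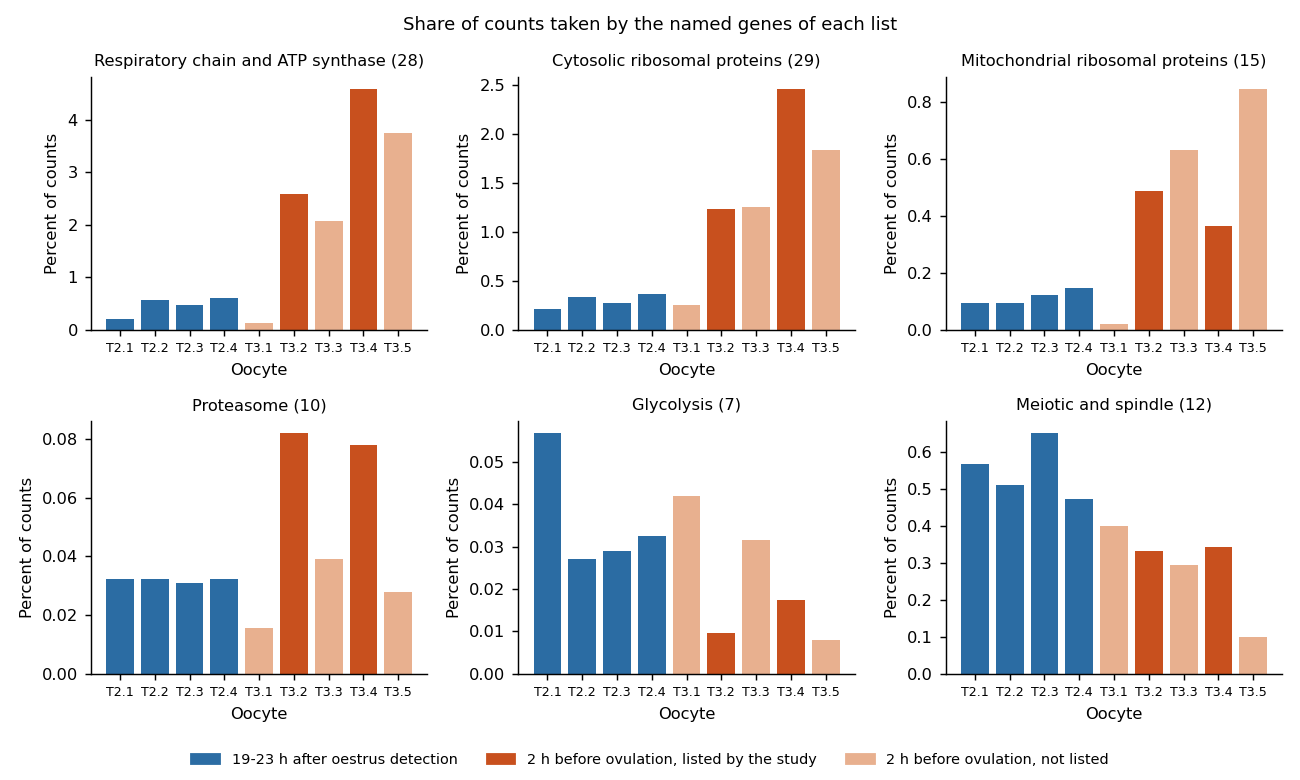
Percent of counts (y axes, different scales, all from 0) held in each oocyte by the named genes of 6 lists, with the number of genes in brackets. Respiratory chain and cytosolic ribosomal transcripts stand above the T2 oocytes in T3.2 to T3.5 but not in T3.1, while the share of meiotic and spindle transcripts is at most 0.399% in each T3 oocyte and between 0.472 and 0.651% in the T2 oocytes.

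Mitochondrial ribosomal proteins, which serve translation of the mitochondrial genome, were divided. All 5 that the study lists as higher in DF (MRPL39, MRPS14, MRPS18C, MRPS21 and MRPS26) were called higher in T3.2 and T3.4, against 20.6% of all genes so listed. None of the 9 others tested was called. MRPS14 had 125, 134, 166 and 153 CPM in T2.1 to T2.4 and 0, 1703, 1076, 771 and 929 CPM in T3.1 to T3.5, with no count in T3.1 and at least 771 CPM in the other T3 oocytes, and a log2 fold change of 3.02 ± 0.39 (adjusted p = 0.00254). MRPL39 had 220.1, 245, 204 and 220.4 CPM in T2.1 to T2.4 and 119, 1104, 1216, 696 and 1779 CPM in T3.1 to T3.5, and its log2 fold change was 1.94 ± 0.33 (adjusted p = 0.00863). In translation initiation and elongation 2 of 5 named genes were called higher (10.4% of all genes with a symbol). EIF1AX, needed for scanning of the messenger RNA by the small ribosomal subunit, had 702, 1212, 1044 and 1169 CPM in T2.1 to T2.4 and 288, 5606, 22603, 11552 and 70880.4 CPM in T3.1 to T3.5. The T3 oocytes spread widely, T3.1 lay below the T2 range and the other 4 above it, with log2 fold changes of 2.97 ± 0.39 (adjusted p = 0.00259) for T3.2 and T3.4 and 4.43 ± 1.01 over all 5 (adjusted p = 0.0589). TPT1, the translationally controlled tumour protein, had a log2 fold change of 3.72 ± 0.54 (adjusted p = 0.00361), while T3.5 had no count of it. EIF3F, EIF3L and EIF6 were not called, with log2 fold changes of -0.58, -1.54 and -0.96 for T3.2 and T3.4. Over all 5 T3 oocytes these were 0.41, 0.65 and -1.585, again not called, so the sign for EIF3F and EIF3L depended on the oocytes used. For EIF3L, T3.1 and T3.3 with 646 and 493 CPM lay above every T2 oocyte (84.0 to 343 CPM), whereas T3.5 had no count.

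Of 5 named genes for heat shock and oxidative stress, the peroxidases PRDX1 and PRDX4 were called higher for T3.2 and T3.4, where the list median was -0.98. Over all 5 T3 oocytes the median of the 4 genes tested was 1.84, with 0 called in edgeR, so its sign depended on the oocytes used. PRDX1 and PRDX4 are both listed by the study as higher in DF. PRDX1, a cytosolic peroxiredoxin, had 656, 594, 437 and 436 CPM in T2.1 to T2.4 and 73.1, 5874, 1908, 5269.9 and 830.0 CPM in T3.1 to T3.5. T3.2 and T3.4 were the highest of all 9 oocytes, T3.3 and T3.5 lay above the T2 range and T3.1 below it, and the log2 fold change was 3.31 ± 0.33 (adjusted p = 0.00127). PRDX4, the peroxiredoxin of the endoplasmic reticulum, had a log2 fold change of 2.84 ± 0.58 (adjusted p = 0.0178). GCLC, the catalytic subunit of the enzyme that limits glutathione synthesis, was not called (-1.05 ± 0.53 (adjusted p = 0.247)). HSF2, a heat shock transcription factor, had -4.23 ± 1.55 (adjusted p = 0.119), with 0 and 0.426 CPM in T3.2 and T3.4, but T3.1 and T3.3 with 17.3 and 44.8 CPM lay above every T2 oocyte. TXN2, the mitochondrial thioredoxin, had -0.98 ± 1.64 (adjusted p = 0.761). PARK7, a sensor of oxidative stress outside this list, was called higher in T3.2 and T3.4 with 4.24 ± 0.42 (adjusted p = 0.00127). In the proteasome 1 of 10 named subunits was called higher, near the 10.4% of all genes with a symbol. It was PSMB4 of the catalytic core, the only one that the study lists as higher in DF, with 3.21 ± 0.38 (adjusted p = 0.00171). The other 9, among them the regulatory subunits PSMD2 and PSMC4 with -0.04 and 0.93, had log2 fold changes between -3.91 and 0.93, and the list median was -0.48.

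Among all named genes, the 10 smallest p-values for T3.2 and T3.4 against T2 in the higher direction included those of ATP6V0B, NME2, SEC11C, NDUFA11, FABP3, YJEFN3, GTSF1, NDUFA7 and PARK7, with log2 fold changes between 3.77 and 4.93. SEC11C, the catalytic subunit of signal peptidase, had 77.9, 68.0, 61.8 and 87.2 CPM in T2.1 to T2.4 and 0, 1127, 1186, 1330.1 and 1167 CPM in T3.1 to T3.5. The 4 T3 oocytes with counts lay between 1127 and 1330.1 CPM, whereas T3.1 had none, and the log2 fold change was 3.98 ± 0.33 (adjusted p = 0.000948). NME2, a nucleoside diphosphate kinase, had 38.1, 59.8, 48.0 and 56.1 CPM in T2.1 to T2.4 and 0, 948, 917, 1353 and 674 CPM in T3.1 to T3.5, again with none in T3.1, and a log2 fold change of 4.42 ± 0.36 (adjusted p = 0.000948). GTSF1, required for silencing of transposons by piRNAs in germ cells, had 88.2, 236, 185 and 194 CPM in T2.1 to T2.4 and 73.1, 4793, 4070.2, 4668 and 3403 CPM in T3.1 to T3.5. Outside T3.1, the lowest T3 value was 3403 CPM and the highest T2 value 236 CPM, with a log2 fold change of 4.67 ± 0.42 (adjusted p = 0.000948). FABP3, a carrier of fatty acids, had 139.9, 131, 118 and 128 CPM in T2.1 to T2.4 and 73.1, 2261, 2028, 1473 and 3989 CPM in T3.1 to T3.5, and a log2 fold change of 3.77 ± 0.34 (adjusted p = 0.000948). ATP6V0B, in the membrane sector of the vacuolar proton pump, had 4.39 ± 0.36 (adjusted p = 0.000948), and NDUFA11, an accessory subunit of complex I, 4.55 ± 0.38 (adjusted p = 0.000948). T3.1 was below the T2 mean for all 9 of these genes, and over all 5 T3 oocytes none was called, with adjusted p between 0.0589 and 0.234.

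The named genes with the smallest p-values in the lower direction were NBEAL1, LIN9, ENDOG, KAT8, TMEFF1, TMEM106C, PDS5B, RIC3, PRMT7 and PIK3CB. NBEAL1, of the BEACH-domain family, had 124, 110.3, 119 and 138 CPM in T2.1 to T2.4 and 0, 7.51, 9.96, 11.9 and 0 CPM in T3.1 to T3.5. All 5 T3 oocytes were at or below 11.9 CPM and all T2 oocytes at or above 110.3 CPM, with a log2 fold change of -3.74 ± 0.52 (adjusted p = 0.00295) for T3.2 and T3.4. TMEFF1, a transmembrane protein with follistatin-like domains, was also lower in all 5, with 219, 289, 182 and 254 CPM in T2.1 to T2.4 and 0, 55.7, 19.9, 49.8 and 0 CPM in T3.1 to T3.5 and -2.24 ± 0.41 (adjusted p = 0.0116). PDS5B, a regulator of cohesin, had 141, 249, 180.0 and 140.1 CPM in T2.1 to T2.4 and 69.2, 24.5, 34.9, 39.2 and 384 CPM in T3.1 to T3.5. It was called lower for T3.2 and T3.4 with -2.56 ± 0.49 (adjusted p = 0.0139), but T3.5 held the highest value of all 9 oocytes and over all 5 the log2 fold change was -0.70. PIK3CB, a catalytic subunit of phosphoinositide 3-kinase, had -4.61 ± 0.94 (adjusted p = 0.0177). LIN9, of the DREAM complex that controls cell cycle genes, had no count in T3.2 and T3.4 and was at least 37.4-fold lower there than the T2 mean of 23.0 ± 7.36 CPM (SD, n = 4), taking 3 counts over both libraries as the floor. T3.1 and T3.3 had 121 and 573 CPM of it, above every T2 oocyte, so the direction did not extend to them. KAT8, the histone H4 acetyltransferase, was at least 34.6-fold lower in T3.2 and T3.4 on the same floor, PRMT7, a protein arginine methyltransferase, at least 26.7-fold, and ENDOG, a mitochondrial nuclease, at least 27.3-fold. For KAT8 and PRMT7, T3.3 had 9.96 and 14.9 CPM, within the T2 range. For ENDOG, T3.3 with 19.9 CPM lay above every T2 oocyte and T3.1 with 17.3 CPM within their range, so the lower direction did not extend to these oocytes.

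Genes that were lower in all 5 T3 oocytes than in any T2 oocyte had roles that ranged from chromosome structure to copper transport. In this direction 80 genes with a symbol were non-overlapping (6.77%), and the 12 with the smallest p gave the genes of this paragraph. TOP2A, the topoisomerase that untangles chromosomes, had 866, 776, 916 and 488 CPM in T2.1 to T2.4 and 167, 279, 44.8, 203 and 5.19 CPM in T3.1 to T3.5. The T3 oocytes spanned a wide range, but the highest of them was below the lowest T2 oocyte, and the log2 fold change was -2.42 ± 0.88 over all 5 (adjusted p = 0.323) and -1.74 ± 0.42 (adjusted p = 0.0329) for T3.2 and T3.4. MCM8, a helicase of homologous recombination in germ cells, had 63.6, 56.7, 54.4 and 27.0 CPM in T2.1 to T2.4 and 0, 6.72, 4.98, 0 and 0 CPM in T3.1 to T3.5 and was called in neither comparison. ATP7A, a copper transporter, had 46.5 ± 23.6 CPM (SD, n = 4) in T2 and no count in 3 of the 5 T3 oocytes, with -5.83 ± 1.22 (adjusted p = 0.0198) for T3.2 and T3.4. MAPKAPK3, a kinase downstream of p38, had no count in any T3 oocyte against 20.7, 6.13, 12.1 and 8.88 CPM in T2.1 to T2.4, and was at least 19.4-fold lower in T3.2 and T3.4 with 3 counts over both libraries as the floor. PLSCR2, of the phospholipid scramblase family, had a count only in T3.2 (1.00 count) and a log2 fold change of -6.63 ± 1.56 over all 5 (adjusted p = 0.0589). USP53, of the ubiquitin-specific protease family, had 414, 544, 342 and 278 CPM in T2.1 to T2.4 and 0, 121, 49.8, 75.3 and 0 CPM in T3.1 to T3.5, with -2.09 ± 0.45 (adjusted p = 0.0222) for T3.2 and T3.4. At levels of this size the T3.5 and T3.3 libraries without a count are uninformative below 15.6 and 14.9 CPM. For MAPKAPK3 both limits lie above the mean of the T2 oocytes (11.95 CPM).

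**Figure D4:**
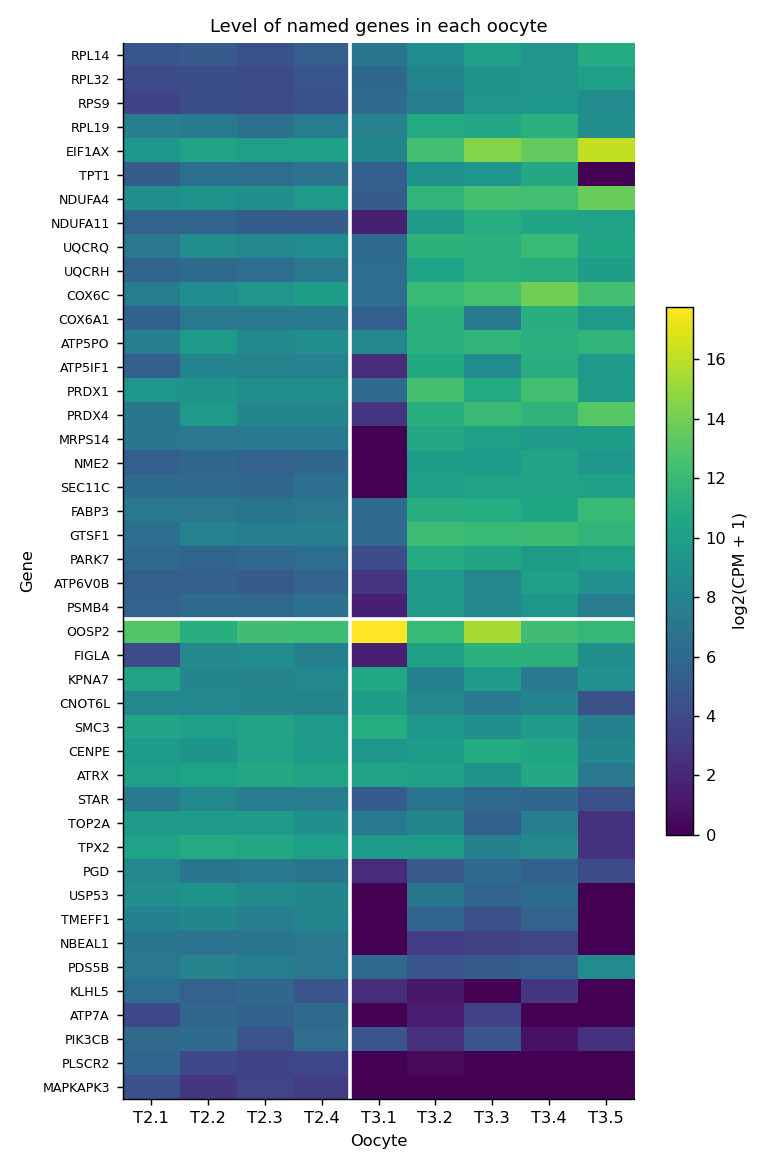
Level of named genes, as log2(CPM + 1) on the colour scale, in the 4 T2 oocytes and the 5 T3 oocytes (columns). The upper block holds genes called higher in T3.2 and T3.4, where T3.1 is as dark as or darker than the T2 oocytes for most rows other than ribosomal proteins, and the lower block holds oocyte, meiotic, marker and lower genes.

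Oocyte-specific genes did not move together. Of 7 named oocyte markers tested, 0 were called in the edgeR test of either comparison (2 at an unadjusted p under 0.05 with all 5 T3 oocytes and 1 with T3.2 and T3.4). DESeq2 called 1 in each comparison, limma-voom 0 and the likelihood ratio test 0 and 1. OOSP2 had 7850.5, 2217, 5052 and 4947 CPM in T2.1 to T2.4 and 224489, 4308, 41853, 5062 and 3719.6 CPM in T3.1 to T3.5. T3.2, T3.4 and T3.5 lay inside the T2 range, and T3.1 and T3.3 far above it. The log2 fold change was -0.19 ± 0.48 (adjusted p = 0.848) for T3.2 and T3.4 and 3.49 ± 1.03 over all 5 (adjusted p = 0.163). FIGLA, a transcription factor of follicle formation, had 16.7, 336, 375 and 203 CPM in T2.1 to T2.4 and 1.92, 1148, 2571, 2725 and 462 CPM in T3.1 to T3.5. T3.2, T3.3, T3.4 and T3.5 were above all T2 oocytes, T3.1 below them, and the gene was not called (log2 fold change 2.96 ± 0.85 (adjusted p = 0.0585) for T3.2 and T3.4). KPNA7, an importin of oocytes and early embryos, had 1312, 290.2, 246 and 314 CPM in T2.1 to T2.4 and 1567, 228, 842, 168 and 503 CPM in T3.1 to T3.5, where T2.1 stood above its group and T3.1 above all. Its log2 fold change was -1.53 ± 0.74 (adjusted p = 0.227) for T3.2 and T3.4 and 0.30 ± 0.83 (adjusted p = 0.960) over all 5.

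Genes that shorten poly-A tails or decay maternal transcripts gave 0 calls among 8 tested in either edgeR comparison (1 at an unadjusted p under 0.05 in each), with a median log2 fold change of -0.79 for T3.2 and T3.4. DESeq2 and the likelihood ratio test each called 1 lower for T3.2 and T3.4 and 0 over all 5, and limma-voom called 0. CNOT6L, a catalytic subunit of the CCR4-NOT deadenylase, had 319, 318, 274 and 242 CPM in T2.1 to T2.4 and 944, 304, 169, 253 and 20.8 CPM in T3.1 to T3.5. T3.2 and T3.4 were inside the T2 range, and the log2 fold change was -0.13 ± 0.34 (adjusted p = 0.851). TUT7, which adds uridines to short tails, was lower in all 5 T3 oocytes (222, 213, 206 and 130.4 CPM in T2.1 to T2.4 and 13.5, 88.1, 54.8, 40.4 and 20.8 CPM in T3.1 to T3.5) without being called (-1.66 ± 0.49 (adjusted p = 0.0640)). XRN1, the cytoplasmic 5′ to 3′ exonuclease, had -0.46 ± 0.51 (adjusted p = 0.629). For cytoplasmic polyadenylation and translational control 4 genes could be named, and 0 were called by any of the 4 tools, with 0 at an unadjusted p under 0.05 in edgeR. EIF4E1B, the oocyte form of the cap-binding protein, had -0.48 ± 0.61 (adjusted p = 0.675), and PATL2, which represses maternal transcripts, 1.36 ± 0.68 (adjusted p = 0.245).

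Of 11 meiotic and spindle genes tested, 0 were called in either edgeR comparison (0 at an unadjusted p under 0.05 over all 5 T3 oocytes and 2 for T3.2 and T3.4). DESeq2 and the likelihood ratio test each called 1 lower for T3.2 and T3.4 and 0 over all 5, and limma-voom called 0. TPX2, an activator of Aurora A kinase on the spindle, had 1297, 1839.7, 1509 and 1067 CPM in T2.1 to T2.4 and 896, 870.4, 224, 324 and 5.19 CPM in T3.1 to T3.5. All T3 oocytes were below all T2 oocytes, with log2 fold changes of -1.61 ± 0.87 over all 5 (adjusted p = 0.640) and -1.33 ± 0.48 (adjusted p = 0.114) for T3.2 and T3.4. KIF11, the kinesin that separates spindle poles, was likewise lower in all 5 with -1.15 ± 0.61 (adjusted p = 0.268) for T3.2 and T3.4. CENPE, a kinesin of the kinetochore, and SMC3, a cohesin subunit, had 0.38 ± 0.39 (adjusted p = 0.594) and -0.61 ± 0.37 (adjusted p = 0.346) and overlapping groups. The summed share of the 12 named genes was 0.568, 0.510, 0.651 and 0.472% of the counts in T2.1 to T2.4 and 0.399, 0.331, 0.295, 0.344 and 0.0987% in T3.1 to T3.5. Chromatin genes also gave 0 calls of 5 tested in edgeR (1 at an unadjusted p under 0.05 for T3.2 and T3.4, 0 over all 5) and 1 by DESeq2 for T3.2 and T3.4. All 5 had negative log2 fold changes for T3.2 and T3.4 (median -0.60), and 1 was non-overlapping and lower (22.8% of all genes with a symbol). Over all 5 T3 oocytes 3 of the 5 genes were positive (median 0.11). The chromatin remodellers ATRX and SMARCA5 had -0.03 ± 0.35 (adjusted p = 0.973) and -0.55 ± 0.42 (adjusted p = 0.469) for T3.2 and T3.4. In glycolysis and the pentose phosphate branch 1 of 7 named genes was called, PGD of the pentose phosphate pathway, with 312, 122, 142 and 118 CPM in T2.1 to T2.4 and 3.85, 30.0, 74.7, 45.5 and 15.6 CPM in T3.1 to T3.5 and a log2 fold change of -2.28 ± 0.58 (adjusted p = 0.0388). Its 5 T3 values were all below its T2 values. GAPDH and ENO3 had -0.87 ± 0.59 (adjusted p = 0.407) and 0.04 ± 0.78 (adjusted p = 0.982) for T3.2 and T3.4. For GAPDH, T3.1 and T3.3 exceeded all T2 oocytes, and the log2 fold change over all 5 was 0.92 ± 1.08 (adjusted p = 0.872). All 7 are listed by the study as higher in >120 μm oocytes.

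Few markers of the cells that surround the oocyte could be named. STAR, the carrier of cholesterol in steroid-producing cells, was the 1 cumulus and granulosa marker of 24 that could be named. It had 159.7, 319, 191 and 197 CPM in T2.1 to T2.4 and 34.6, 124, 69.7, 60.4 and 20.8 CPM in T3.1 to T3.5, lower in all 5 T3 oocytes but not called (-1.31 ± 0.48 (adjusted p = 0.119)). Cumulus cells had been removed by pipetting, and STAR was the only basis on which their share could be read. CD44, the 1 of 20 genes of cumulus expansion and ovulation with a name, had counts in T2.1 and T3.4 alone, at 3.97 and 2.98 CPM. Of 25 leukocyte markers 2 could be named. CSF1R, the receptor of macrophage colony-stimulating factor, had 11.9, 7.66, 10.0 and 12.1 CPM in T2.1 to T2.4 and 0, 0.395, 89.7, 15.7 and 0 CPM in T3.1 to T3.5, and SRGN, a proteoglycan of secretory granules, 7.15, 26.4, 31.1 and 528 CPM in T2.1 to T2.4 and 0, 129, 0, 1.70 and 0 CPM in T3.1 to T3.5. Their summed level was between 19.1 and 540.0 CPM in T2 and between 0 and 129 CPM in T3 oocytes. None of the 10 erythrocyte markers could be named. The part of other cells in the differences above was not tested.

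The genes called with T3.2 and T3.4 were then read in the 3 T3 oocytes that had not entered that choice. The 504 genes called higher held 3.33, 5.62, 5.01 and 5.75% of the counts in T2.1 to T2.4 and 30.8 and 36.1% in T3.2 and T3.4, values fixed by the choice. In T3.3 they held 20.9% and in T3.5 45.6%, but in T3.1 only 1.82%, below every T2 oocyte. The 302 genes called lower held 4.51 to 6.25% in the T2 oocytes. They held 2.77% in T3.3, 1.55% in T3.5 and 4.01% in T3.1, all below the T2 range, and 111, 247 and 157 of them had no count there, against 3008, 6197 and 3982 of all 8753 genes. The T2 oocytes are shared by both readings, so this is a description and not a second test.

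**Figure D5:**
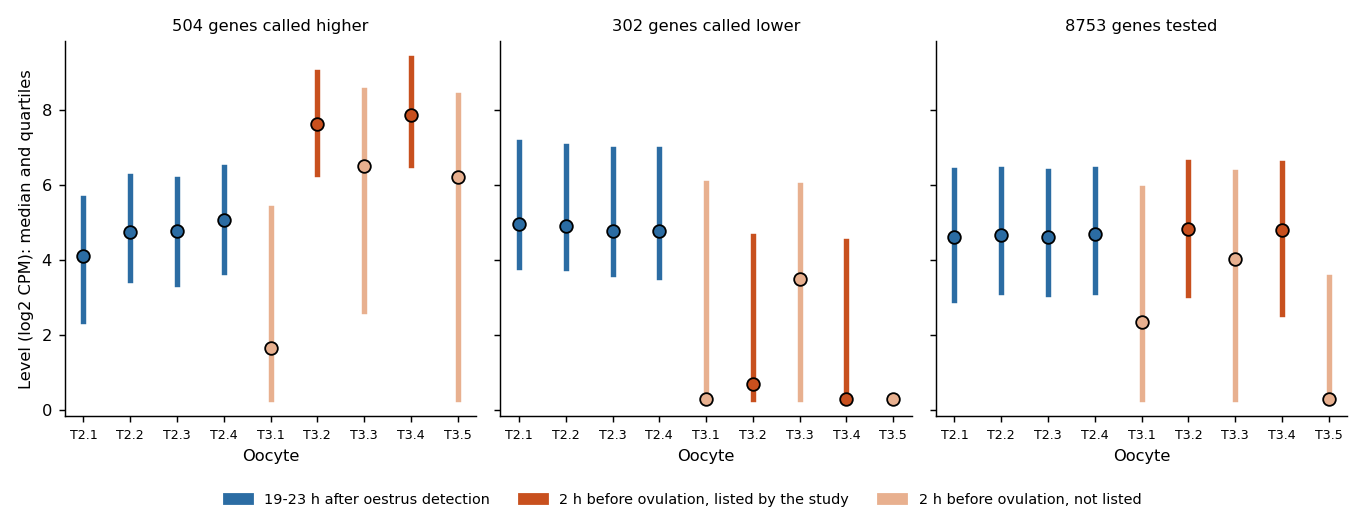
Median (points) and quartiles (bars) of log2 CPM in each oocyte for the 504 genes called higher in T3.2 and T3.4, the 302 called lower and all 8753 tested. T3.3 and T3.5, which had no part in the calls, lie above the T2 oocytes for the first group in the median (6.51 and 6.21 against 4.10 to 5.06), and T3.1 lies below them at 1.65.

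Most called genes carry no symbol here, 352 of those higher and 249 of those lower. A pair of genes without a symbol, chosen after their values were seen as those with the smallest p over all 5 T3 oocytes, illustrate both directions. In that comparison 0 genes were called. ENSBTAG00000005654 had 36.6, 75.4, 86.6 and 103 CPM in T2.1 to T2.4 and 173, 3026, 1315, 8353 and 2521 CPM in T3.1 to T3.5, with every T3 above every T2 oocyte and a log2 fold change of 5.36 ± 1.01 (adjusted p = 0.0589). ENSBTAG00000015962 had 23.0, 105, 33.8 and 55.3 CPM in T2.1 to T2.4 and no count in any T3 oocyte (adjusted p = 0.0589). With T3.2 and T3.4 alone the corresponding genes were ENSBTAG00000013343 (4.73 ± 0.40, adjusted p = 0.000948) and ENSBTAG00000012454 (-6.36 ± 0.68, adjusted p = 0.00127). T3.1 went the other way for both. It had 73.1 CPM of the first, against 83.0 to 165 in the T2 oocytes, and 294 CPM of the second, against 131 to 286.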

How the data were processed

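Single DF oocytes were sequenced after Smart-seq2 amplification (single-end reads, without molecular identifiers). Per the labels and the methods, Trim Galore (version 0.6.6 in the submitters' processing notes) was used for trimming, HISAT2 for mapping to ARS-UCD1.2 and SeqMonk for quantification, and the authors deposited raw read counts for 21218 Ensembl genes, without normalization. The annotation release and the strandedness of counting are not given in the sources used here. Every column was matched to its sample by name. Symbols were matched by Ensembl identifier through the study's table of genes that differed between DF and >120 μm oocytes, which names 1741 of its 1829 identifiers, and all 1741 are in the counts. The reference table of gene names holds no Ensembl identifiers, so other genes stayed unnamed.

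From the counts, genes were filtered with filterByExpr, scaled with TMM factors and tested by quasi-likelihood in edgeR (version 4.0.16 under R 4.3.3), adjusted after Benjamini-Hochberg over all genes tested, and called at an adjusted p under 0.05 and an absolute log2 fold change above 1.5, the thresholds of the study. Only the T2 and T3 oocytes entered each fit. The standard error beside a fold change was derived from its F-statistic. Levels are CPM of the TMM-scaled total, and log2 CPM used a prior count of 2. Measures with a single value per oocyte were compared by two-sided exact permutation tests (scipy 1.17.1 and numpy 2.4.6 under Python 3.11.15). Alternatives were DESeq2 (version 1.42.0), limma-voom (version 3.58.1), the likelihood ratio test of edgeR, other scaling factors, filters and fold thresholds, thinned counts, single fits with the T1 oocytes, and leaving out 1 oocyte at a time. The procedure was tested on simulated data.

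The members of the comparison and the gene lists were chosen with earlier results of these data known. Named genes were the 10 with the smallest p in each direction for T3.2 and T3.4, the 12 with the smallest p in each direction among those that did not overlap over all 5 T3 oocytes, the 6 with the smallest p in each direction for T3.2 and T3.4 whose 5 T3 values lay on the same side of the T2 mean, and the 3 most abundant of each list. Further members of a list are named to complete it. The oocytes came from earlier animal trials, and the trial of each is not given in the sources used here, so no comparison within a trial was made. The 6 oocytes collected 24 h before ovulation and the >120 μm oocytes were not analysed here, apart from single fits. Results for some genes that met the rule are not reported here.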

Additional observations from a re-analysis of the deposited data

Results flagged for a closer look

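In groups of 4 and 5 oocytes, values that stood far from the rest of their group were looked for in 211 combinations of group and measure, and 46 gaps were found, where chance gives about 1 in 20. Values are log2 CPM, and 0.29 is the level given to a count of 0. T3.1 was the lowest of its group for the median of the named genes for complex I (3.18, others 7.98 to 9.73), the median of the named genes for complex II and III (6.10, others 9.96 to 11.29), ATP6V0B (2.81, others 8.23 to 10.07) and NME2 (0.29, others 9.40 to 10.40). The same held for SEC11C (0.29, others 10.14 to 10.38), NDUFA11 (1.65, others 9.67 to 11.02), FABP3 (6.22, others 10.53 to 11.96) and YJEFN3 (5.08, others 9.40 to 10.80). It also held for GTSF1 (6.22, others 11.73 to 12.23), PARK7 (4.21, others 9.66 to 10.92), NDUFA4 (5.16, others 11.62 to 13.74) and UQCRQ (6.10, others 10.44 to 12.04). T3.1 was again lowest for UQCRH (6.39, others 9.96 to 11.29), COX6C (6.46, others 11.95 to 13.92), COX7A2 (4.48, others 8.41 to 9.96) and ATP5PO (8.29, others 11.31 to 11.67). Further such values were those of ATP5IF1 (2.34, others 8.61 to 11.16), MRPS18C (0.29, others 10.62 to 12.37), MRPS14 (0.29, others 9.59 to 10.74) and PSMB4 (1.65, others 7.51 to 9.59). To these were added FIGLA (1.65, others 8.85 to 11.41) and PRDX4 (2.81, others 11.20 to 13.08). T3.1 was the highest of its group for NOC2L (1.65, others 0.29). T3.3 was the highest of its group for KAT8 (3.48, others 0.29), TMEM106C (3.48, others 0.29), RIC3 (3.48, others 0.29) and PRMT7 (4.02, others 0.29). The same held for AIRIM (2.63, others 0.29) and ENO3 (7.08, others 5.11 to 5.23). T3.3 was the lowest of its group for XRN1 (0.29, others 6.28 to 7.93). T3.2 was the highest of its group for PLSCR2 (0.70, others 0.29), ADAL (2.99, others 0.29) and SRGN (7.02, others 0.29 to 1.55). T3.5 was the lowest of its group for the median of the named genes for glycolysis (0.29, others 3.67 to 4.96) and TPX2 (2.68, others 7.82 to 9.81). T2.1 was the lowest of its group for the median of the named genes for translation elongation and initiation (5.24, others 6.41 to 6.50), HINT1 (3.32, others 5.19 to 5.55), COX6A1 (5.51, others 7.16 to 7.26) and ATP5PD (6.22, others 8.90 to 9.45). The same held for ATP5IF1 (5.44, others 7.90 to 8.00). T2.1 was the highest of its group for the median of the named genes for meiotic resumption and spindle (7.66, others 6.03 to 6.28), PLSCR2 (5.81, others 3.62 to 3.90), ENO3 (6.28, others 3.95 to 4.28) and KPNA7 (10.36, others 7.95 to 8.30). T2.3 was the lowest of its group for PIK3CB (4.55, others 6.15 to 6.39). T2.3 was the highest of its group for XRN1 (8.13, others 7.49 to 7.59). In 8 of the 46, for KAT8, TMEM106C, RIC3, PRMT7, AIRIM, NOC2L, PLSCR2 and ADAL, the other oocytes of the group had no count. There any count gives such a gap (1 to 17 counts here), so these say nothing of the oocyte and the rate of 1 in 20 does not apply to them. T3.1 as the lowest of the T3 oocytes accounted for 22 of the 46, many of them in genes that were named because they were called higher in T3.2 and T3.4, and genes measured in the same oocytes are not independent of each other.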

How the results depend on the processing

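Both single-value comparisons kept their direction in all settings run. The difference in genes detected lay between -4655 and -2985 genes with 1 oocyte left out, and its exact permutation p rose above 0.05 without T2.2, T2.3, T2.4, T3.1, T3.3, T3.4 or T3.5, where 0.0286 or 0.0357 was the smallest possible. With T3.2 and T3.4 alone it was -1182 (exact permutation p = 0.267). The difference in the share of the 10 most abundant genes lay between 11.3 and 15.6 percentage points with 1 oocyte left out, and was 7.32 with T3.2 and T3.4 alone (exact permutation p = 0.133, the smallest possible).

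The number of called genes depended on the fit, and the cause was not tested. Over all 5 T3 oocytes, where the quasi-likelihood test of edgeR called 0, upper-quartile factors gave 58 (21 higher), no filter 99 (72 higher), a minimum of 10 counts per oocyte 55 (50 higher), the likelihood ratio test 160 (77 higher), DESeq2 244 (139 higher) and limma-voom 201 (136 higher). With 1 oocyte left out it ranged from 0 to 190, the calls arising without T3.1 (190) and without T3.2 (129, 17 higher). RLE factors, thinned counts, no fold threshold and all 15 oocytes in a single fit gave 0. For T3.2 and T3.4, where 806 were called, the likelihood ratio test gave 1604 (810 higher), DESeq2 1436 (719 higher), limma-voom 425 (413 higher), a minimum of 10 counts per oocyte 583 (437 higher) and the single fit of 11 oocytes 0. With 1 oocyte left out the number ranged from 302 to 2201, with 324 without T2.2, 302 without T2.3, 441 without T2.4 and 2201 without T3.2, where T3.4 is assumed to vary like the T2 oocytes. All 302 called without T2.3 were among the 806, as were 398 of the 425 called by limma-voom. None of the 60 named genes called for T3.2 and T3.4 changed sign in any setting, whereas 12 of 88 did so in each comparison, none of them called. Of 16 lists with 3 or more named genes, 12 kept the sign of their median difference in log2 CPM (T3 minus T2 means, 5 against 4) in all settings. Over all genes tested this difference was -1.21, and the lists for glycolysis (-0.998), meiosis and the spindle (-0.91), the proteasome (-0.88) and chromatin (-0.75) lay above it, so their kept negative sign says nothing particular of these lists. The fitted medians of glycolysis and chromatin were 0.23 and 0.11. The lists for heat shock and oxidative stress (-1.09 to 0.22 log2 CPM), mitochondrial ribosomal proteins (-0.50 to 0.37), oocyte markers (-0.42 to 0.40) and translation elongation and initiation (-0.78 to 0.30) did not.

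The titles give T2 and T3 oocytes the same numbers but different animals. Deviations from the group means correlated above 0.1 in 1 of 4 same-numbered pairs (from 0.002 to 0.278), so the numbers were not taken to pair the oocytes, although 3 of 4 T2 oocytes correlated best with the T3 oocyte of their number. With the number as a replicate block, 0 genes were called in both comparisons (1030 at an unadjusted p under 0.05 for T3.2 and T3.4, where 2 pairs remain).

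Depth limits the T3 libraries most, since T3.5 holds 175263 counts and T3.3 holds 271763, and absence of a transcript there cannot be told apart from a level under their floors. With T3.2 and T3.4 alone the exact tests cannot reach a p of 0.05.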
